A study of Mus musculus with 36 samples.

Results

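The livers compared here came from mice of the inbred strain C57BL/6J that were kept on normal chow and harvested at ZT12 or ZT16. Zeitgeber time, ZT, is the number of hours since lights on; with 12 h of light and 12 h of dark, ZT12 is the moment of lights off. The comparison takes the 6 samples that the labels place at those times on chow, 3 per time, out of 36 samples in all. All mice were 16 weeks old and had food at all times. The labels record neither food intake nor sex, so ZT16 is described below as 4 h after lights off and not by what the animals had eaten. The same 4 h step in mice fed a high fat diet for 10 weeks, with 60% of calories from fat, served as a second set of 6 samples. The other 24 arrays, from the remaining times on both diets, shared in the estimate of each gene's spread and gave the other steps and the course of each gene over the day.

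Mice are nocturnal and take most of their food in the dark phase, so the liver passes from a fasting to a feeding state at about the time these samples bracket. The liver clock is a transcriptional loop in which BMAL1 and CLOCK, bound to E-box sequences, drive the Per and Cry repressors, the REV-ERB receptors and a set of output genes, and in which REV-ERB in turn represses the gene for BMAL1. Insulin, glucocorticoids and body temperature also follow the daily cycle and act on liver genes through FOXO proteins, the glucocorticoid receptor and heat shock factor.

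Levels are given as log2(intensity + 16) on the array, where a difference of 1 is a doubling of the offset intensity; the offset understates the change of dim genes. The residual standard deviation of a median gene was 0.14, and across genes the arrays correlated at 0.985 to 0.993 within a time and at 0.979 to 0.989 between the times. The label of the tissue was checked on 9 hepatocyte markers, among them Alb, Apoa1 and Ttr, which ranked between 2 and 34 in brightness among 19938 genes. None of these 9 markers was called, 0 had a positive difference, and their median difference was -0.03. Of all 13956 tested genes 6473 had a positive difference. Tests are from limma, with p-values adjusted by the Benjamini-Hochberg method over 13956 tested genes, and a gene is called at an adjusted p under 0.05. The labels number 3 samples per group and do not describe cages or litters; the p-values therefore reflect only the scatter among these samples.

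From ZT12 to ZT16 on chow, 290 genes rose, which is 2.08% of the genes tested, and 225 fell, which is 1.61%. Together 515 genes (3.69%) were called. Most changes were modest: the median size among called genes was 0.47, and 25 genes that rose (0.179%) and 16 that fell (0.115%) changed at least 2-fold. The median over all tested genes was -0.01. All 3 samples of ZT16 lay above all 3 of ZT12 for 1322 of the 13956 tested genes and below them for 1250. Among called genes this held for 282 of the 290 that rose and 222 of the 225 that fell. Groups that do not overlap, as described below, therefore add little to a call. The counts depend on single arrays. Without replicate 2 of ZT12, 254 genes were called, without replicate 1 of ZT12 333, and without replicate 3 of ZT16 258. Among the other 4 h steps on chow, limma called 906 genes (6.49%) from ZT20 to ZT0, 295 (2.11%) from ZT4 to ZT8, 263 (1.88%) from ZT0 to ZT4, 182 (1.3%) from ZT8 to ZT12 and 164 (1.18%) from ZT16 to ZT20. Neighbouring steps share samples, and the differences between these counts were not tested.

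**Figure D1:**
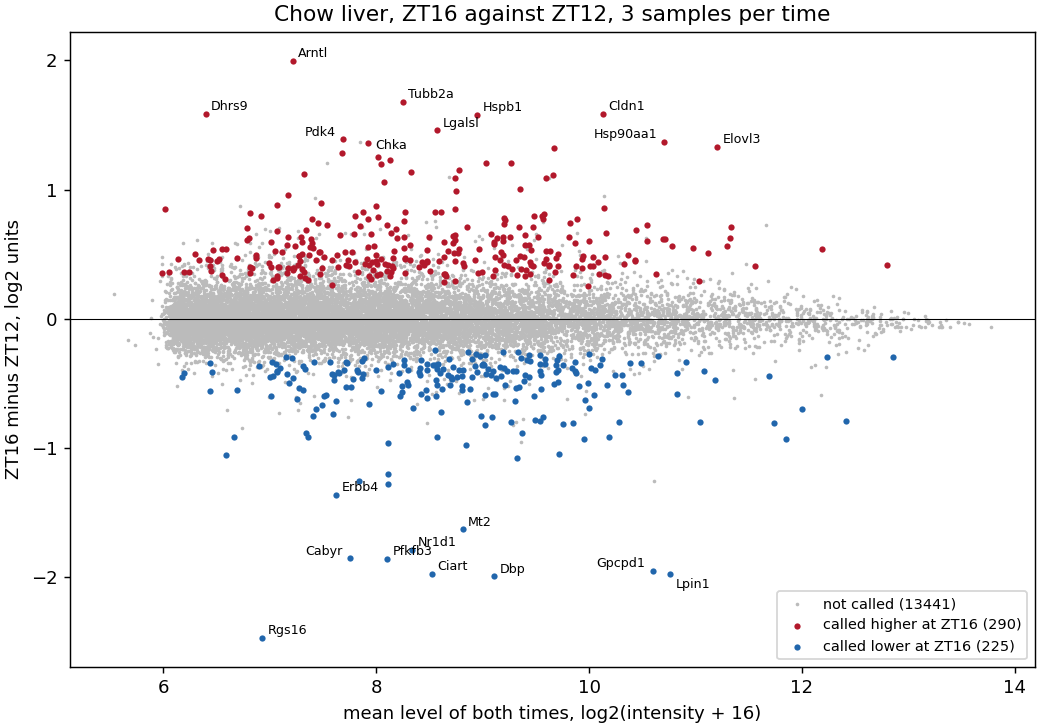
Each point is 1 of 13956 tested genes, with its mean level over the 6 chow samples on the horizontal axis and its ZT16 minus ZT12 difference on the vertical axis, both in log2 units of intensity + 16. Red points are the 290 genes called higher and blue points the 225 called lower; the 10 highest and the 10 lowest called differences are named, from Arntl at 1.99 to Rgs16 at -2.47.

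The largest rise belonged to Arntl, which encodes BMAL1. Its level was 6.10, 5.96 and 6.61 in replicates 1 to 3 at ZT12 and 8.13, 8.14 and 8.38 at ZT16. All 3 later samples lay above all 3 earlier ones, with a difference of 1.99 ± 0.20 (SE, n = 3 per time, limma adjusted p = 1.6e-07). Clock, which encodes the partner of BMAL1, stood at 9.12, 9.07 and 9.30 and then at 10.00, 9.80 and 10.07. The groups again did not overlap, and the rise of 0.79 ± 0.10 had an adjusted p of 3.94e-06. Nfil3, a repressor that binds D-box sequences, rose by 0.67 ± 0.14 (adjusted p = 0.00513), and was not called without replicate 1 of ZT12 (adjusted p = 0.0501).

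The genes of the REV-ERB repressors moved the other way. Nr1d1 (REV-ERB alpha) had levels of 9.26, 9.09 and 9.34 at ZT12 and 7.85, 7.38 and 7.10 at ZT16, a difference of -1.79 ± 0.26 (limma adjusted p = 5.33e-05). Nr1d2 (REV-ERB beta) fell by 0.82 ± 0.17 (adjusted p = 0.0029), from 10.16 ± 0.06 to 9.35 ± 0.29 (SD, n = 3 each). Rora, an activator that competes with REV-ERB for the same sites, had a difference of 0.00 ± 0.10 with overlapping samples. Of the 6 tested genes of the activator loop, 3 rose and 2 fell, with a median of 0.33. Over all tested genes 2.08% rose and 1.61% fell.

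Among the 10 tested repressors and their kinases 3 fell and 1 rose, where 1.61% of all tested genes fell and 2.08% rose. The list had a median difference of -0.11. Ciart, which encodes a repressor of CLOCK and BMAL1, had the lowest difference in this list. It stood at 9.59, 9.69 and 9.27 at ZT12 and at 7.82, 7.55 and 7.25 at ZT16, which is -1.98 ± 0.28 (limma adjusted p = 3.64e-05), and its other, dimmer probe set gave -2.00. Per1 fell by 1.28 ± 0.21 (adjusted p = 0.000195) and Bhlhe41, an E-box binding repressor also called DEC2, by 1.06 ± 0.17 (adjusted p = 0.000172). Both had groups that did not overlap. Cry1 was the member that rose, from 7.62, 7.28 and 7.71 to 8.12, 8.43 and 8.37, a difference of 0.77 ± 0.12 (adjusted p = 0.000179).

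Of the Period genes only Per1 was called. Per3 had a difference of -0.48 ± 0.14 that missed the threshold (limma adjusted p = 0.0546), although its ZT12 samples (8.73, 8.68 and 8.74) all lay above its ZT16 samples (8.31, 8.19 and 8.22). Per2 differed by 0.27 ± 0.13 (adjusted p = 0.344), with levels of 8.75 to 9.04 before and 9.12 to 9.28 after, which did not overlap. The differences between the Period genes were not themselves tested. Cry2 (-0.12), Bhlhe40 (-0.10) and the kinase genes Csnk1d (-0.02) and Csnk1e (0.07) were not called.

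**Figure D2:**
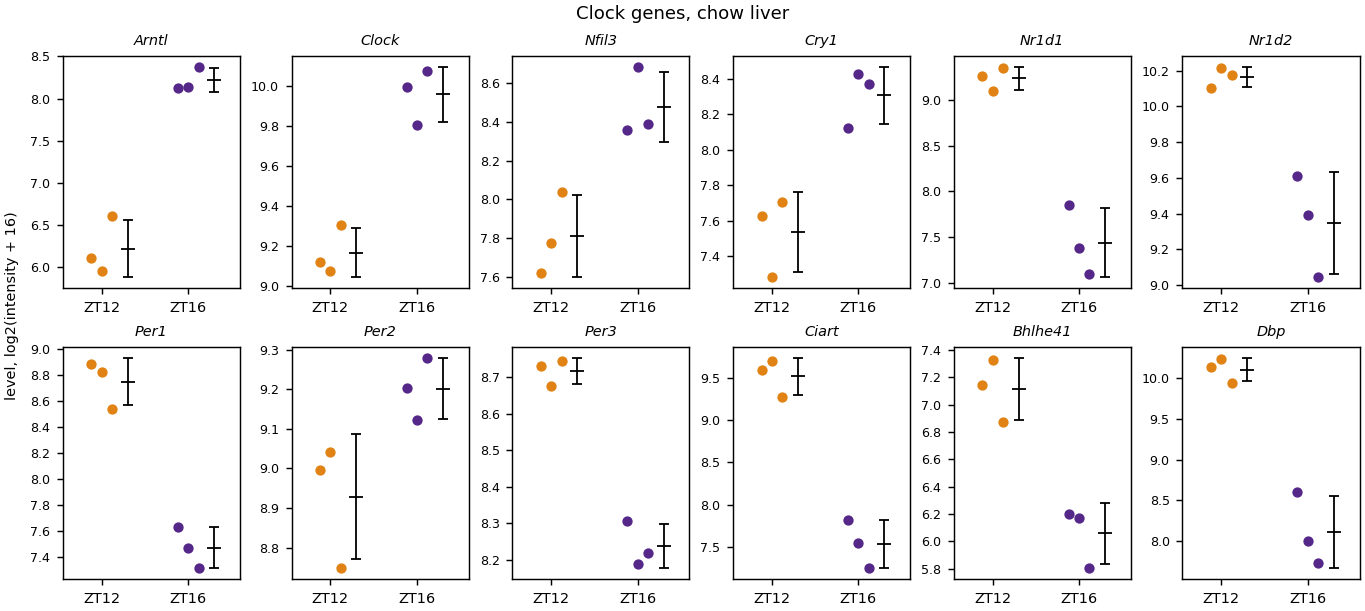
Levels of 12 clock genes in log2(intensity + 16), each panel with its own axis; points are single chow samples at ZT12 (orange) and ZT16 (purple), and bars give the mean and SD of 3. Arntl, Clock, Nfil3 and Cry1 lie higher at ZT16 and Nr1d1, Nr1d2, Per1, Ciart, Bhlhe41 and Dbp lower, while Per2 and Per3 did not pass the test.

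Promoter sequences of 3 of these genes are printed to show the elements through which the loop is known to work. They are RefSeq windows on build GRCm38.p6 from 250 bases before to 50 bases after an annotated start, read 5′ to 3′ on the strand of the gene. Capitals mark the E-box hexamer CACGTG in Ciart (chr3:95882179-95882478, minus strand, 3 matches) and Per1 (chr11:69098699-69098998, plus strand, 1 match) and the RORE, the site of REV-ERB and ROR, in Arntl (chr7:113207261-113207560, plus strand, 1 match). These windows were chosen because they hold a match. The windows of a second annotated start of Per1 and of Arntl held none, and neither did those of Dbp, Nr1d1, Nr1d2, Usp2 and Lpin1 for the E-box or those of Clock, Nfil3 and Cry1 for the RORE, while Tef and Bhlhe41 had an E-box.
Ciart: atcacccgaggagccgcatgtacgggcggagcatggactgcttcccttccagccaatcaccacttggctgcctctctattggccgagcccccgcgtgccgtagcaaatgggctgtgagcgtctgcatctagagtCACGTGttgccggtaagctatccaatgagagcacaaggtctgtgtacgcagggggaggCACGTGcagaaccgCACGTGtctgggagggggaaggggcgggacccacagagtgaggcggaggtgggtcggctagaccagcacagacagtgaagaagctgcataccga
Per1: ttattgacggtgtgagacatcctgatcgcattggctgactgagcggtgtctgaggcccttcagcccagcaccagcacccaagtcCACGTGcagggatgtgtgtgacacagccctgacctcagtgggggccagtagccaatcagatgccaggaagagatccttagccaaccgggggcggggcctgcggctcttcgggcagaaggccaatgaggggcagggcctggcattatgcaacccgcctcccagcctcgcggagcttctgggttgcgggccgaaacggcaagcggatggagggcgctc
Arntl: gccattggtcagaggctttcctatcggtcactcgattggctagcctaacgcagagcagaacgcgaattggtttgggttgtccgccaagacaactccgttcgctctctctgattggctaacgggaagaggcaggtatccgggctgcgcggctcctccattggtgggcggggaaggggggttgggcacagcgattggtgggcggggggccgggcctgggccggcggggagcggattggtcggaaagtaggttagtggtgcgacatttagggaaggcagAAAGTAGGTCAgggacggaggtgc

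Such windows, 13994 in all, were matched to 11085 of the tested genes and searched on both strands. A gene was counted if any of its windows held a match. CACGTG was found for 1238 genes (11.2%), for 30 of the 234 called higher that had a window (12.8%) and for 34 of the 183 called lower (18.6%). The RORE pattern was found for 32 genes (0.289%), of which 2 were called higher and 0 lower. D-boxes, written TTATGTAA or TTACGTAA, were found for 110 genes (0.992%), with 1 among those called higher and 2 among those called lower. A match is a description of letters in the window and was not tested for binding.

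Genes controlled by the clock mostly had lower values at ZT16: of 15 tested output genes 5 fell and 2 rose, with a median of -0.38. Over all tested genes 1.61% fell and 2.08% rose. Dbp, a D-box activator and direct target of CLOCK and BMAL1, stood at 10.14, 10.23 and 9.94 at ZT12 and at 8.60, 8.00 and 7.73 at ZT16. The groups were far apart, with a difference of -1.99 ± 0.17 and a limma adjusted p of 6.04e-09. Tef, a relative of Dbp, fell by 0.49 ± 0.13 (adjusted p = 0.0295), whereas Hlf, the third of the family, had a difference of -0.06 ± 0.10.

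Usp2, a deubiquitinase, fell by 0.93 ± 0.21, a call lost without replicate 3 of ZT16, and Upp2, a uridine phosphorylase, by 0.81 ± 0.13. Rgs16, a regulator of G protein signalling, had the largest drop of all tested genes. Its samples read 8.86, 7.62 and 8.02 at ZT12 and 6.63, 5.14 and 5.31 at ZT16, which gives -2.47 ± 0.67 (limma adjusted p = 0.0316). The groups did not overlap but were widely spread, and the call was lost without any of 5 of the 6 arrays, with adjusted p-values up to 0.163. Lonrf3 (0.56 ± 0.13) and the vasopressin receptor gene Avpr1a (1.06 ± 0.27) were the outputs that rose. Without replicate 3 of ZT16, 2 output genes were called lower and 0 higher, 3 were called lower without replicate 1 or 2 of ZT12 or replicate 2 of ZT16, and the call of Avpr1a was also lost without any single ZT12 array.

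The list with the most called genes that rose was that of heat shock and temperature-dependent genes, where 12 of 25 rose and 0 fell. In the smaller clock activator list 3 of 6 rose. The heat shock list had a median difference of 0.32 against -0.01 over all tested genes, of which 2.08% rose and 1.61% fell. Members and lists were chosen with earlier results of these data known. Hspb1, a small heat shock protein that holds unfolded proteins in solution, went from 8.07, 8.19 and 8.21 to 9.96, 9.77 and 9.49, a rise of 1.58 ± 0.20 (limma adjusted p = 5.57e-06). Hsp90aa1, the inducible form of HSP90, went from 9.87, 10.02 and 10.17 to 11.31, 11.33 and 11.53, a rise of 1.37 ± 0.15 (adjusted p = 2.78e-07). Neither gene had overlapping groups.

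Several of the 12 encode proteins that work with HSP90 and HSP70. Stip1, which hands clients from HSP70 to HSP90, rose by 0.85 ± 0.09 from 9.63, 9.71 and 9.81 to 10.54, 10.52 and 10.65 (limma adjusted p = 1.99e-07). Fkbp4, an immunophilin of steroid receptor complexes, rose by 0.71 ± 0.08 (adjusted p = 4.52e-07), and Ahsa1, which stimulates the ATPase of HSP90, by 0.41 ± 0.08. The nucleotide exchange factors of HSP70 included Hsph1 (1.20 ± 0.21), Hspa4l (1.14 ± 0.13) and Bag3 (0.59 ± 0.13). Also called were Chordc1 (0.76 ± 0.20), the prolyl hydroxylase subunit gene P4ha1 (0.76 ± 0.15), Dnajb1 (0.53 ± 0.13) and the constitutive HSP70 gene Hspa8 (0.42 ± 0.09).

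The 13 members without a call included the classical inducible HSP70 gene Hspa1a, at 0.32 ± 0.15 (limma adjusted p = 0.301), and the mitochondrial chaperone genes Hspd1 (0.15), Hspe1 (0.21), Hspa9 (-0.09) and Trap1 (-0.01). The cytosolic chaperonin genes Cct2 (0.03), Cct5 (0.13) and Tcp1 (0.19) were not called either. Cirbp and Rbm3, RNA-binding proteins induced by cooling, had differences of -0.45 ± 0.16 and -0.15 ± 0.14 that missed the threshold. The count of 12 stayed within 1.5 times under every alternative tried.

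**Figure D3:**
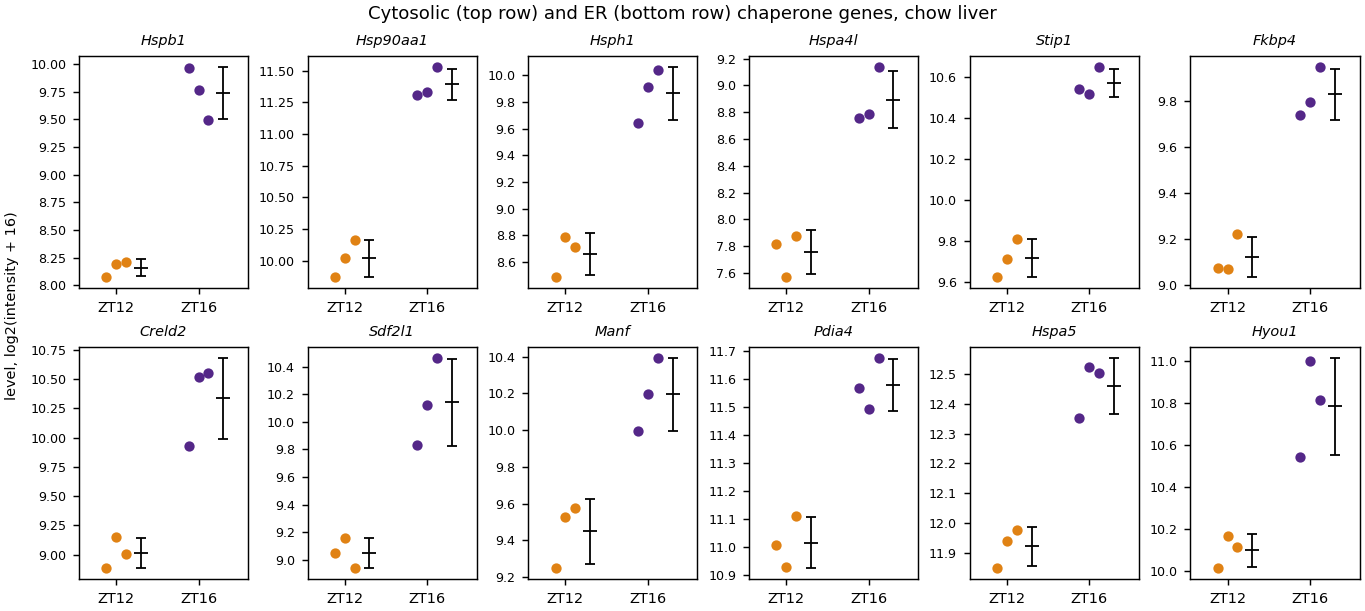
Levels of 6 cytosolic (top) and 6 endoplasmic reticulum chaperone genes (bottom) in log2(intensity + 16), each panel with its own axis; points are single chow samples at ZT12 (orange) and ZT16 (purple), and bars give the mean and SD of 3. In each of the 12 panels the 3 samples of ZT16 lie above the 3 of ZT12, by 1.58 on average for Hspb1 and by 0.54 for Hspa5.

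Heat shock factor binds repeats of GAA and TTC, and the promoters of Chordc1 and Hsph1 are shown because they were the 2 among 10 called heat shock genes with a window that held the full element, GAANNTTCNNGAA or TTCNNGAANNTTC. Of all 11085 tested genes with a window, 60 (0.541%) had the element. Capitals mark the matches in Chordc1 (chr9:18292017-18292316, plus strand, 3 overlapping matches) and in Hsph1 (chr5:149636287-149636586, minus strand, 1 match) on GRCm38.p6.
Chordc1: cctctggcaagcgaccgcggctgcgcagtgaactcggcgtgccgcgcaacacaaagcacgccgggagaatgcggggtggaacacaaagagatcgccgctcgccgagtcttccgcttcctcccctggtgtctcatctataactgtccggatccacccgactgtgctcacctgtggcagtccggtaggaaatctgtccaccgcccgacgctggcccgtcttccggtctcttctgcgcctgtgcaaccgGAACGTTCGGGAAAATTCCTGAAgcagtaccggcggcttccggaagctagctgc
Hsph1: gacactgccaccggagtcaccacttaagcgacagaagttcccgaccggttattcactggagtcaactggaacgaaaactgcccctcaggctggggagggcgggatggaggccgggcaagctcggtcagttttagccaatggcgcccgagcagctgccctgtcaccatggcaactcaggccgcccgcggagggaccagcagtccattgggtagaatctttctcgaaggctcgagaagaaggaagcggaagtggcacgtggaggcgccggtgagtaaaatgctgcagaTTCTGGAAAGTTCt

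The shorter core, GAANNTTC or TTCNNGAA, which every full element contains, was found for 5 of these 10 genes and for 14.1% of all tested genes with a window. Elements farther from the start were not searched.

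The next list was that of chaperones and the unfolded protein response of the endoplasmic reticulum (ER), where secreted proteins fold. Of its 35 tested genes 11 rose, 0 fell and 24 were not called, with a median of 0.19. Over all tested genes 2.08% rose and 1.61% fell. Hspa5, the main ER chaperone BiP, was already bright at 11.85, 11.94 and 11.98 and reached 12.35, 12.52 and 12.50, a rise of 0.54 ± 0.11 (limma adjusted p = 0.00421). Manf, a secreted cofactor of BiP, rose by 0.74 ± 0.13 (adjusted p = 0.000365) and Pdia4, a disulfide isomerase, by 0.56 ± 0.09 (adjusted p = 0.00019). Creld2 had the largest rise in the list, from between 8.89 and 9.15 to 9.93, 10.52 and 10.55 (1.32 ± 0.31). No sample of these 4 genes at ZT16 fell within the range of ZT12.

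The remaining 7 genes called were Sdf2l1 (1.09), Hyou1 (0.69), Ero1b (0.53), Dnajb11 (0.49), Hspa13 (0.48), Sel1l (0.45) and Ostc (0.34). Xbp1 and Atf6, transcription factors of the unfolded protein response, differed by 0.03 and -0.02 and were not called, and neither were Calr (0.15) or Hsp90b1 (0.23). Herpud1, of ER-associated degradation, had a difference of -0.36. The count rested on single arrays: 4 were called without replicate 3 of ZT16, 6 without replicate 2 of ZT12 and 7 without replicate 1 of ZT12, and Creld2 lost its call without replicate 3 of ZT16 (adjusted p = 0.0745) and without replicate 1 of ZT12 (adjusted p = 0.0501).

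In the list of the glucocorticoid receptor and its targets 10 of 22 tested genes fell and 0 rose, with a median of -0.56. Over all tested genes 1.61% fell and 2.08% rose. Fkbp5, a feedback inhibitor of the receptor, fell by 0.69 ± 0.15 from 8.72, 8.75 and 8.61 to 8.09, 7.97 and 7.93 (limma adjusted p = 0.00593). Klf9, a transcription factor, fell by 0.56 ± 0.12, Nfkbia, the inhibitor of NF-kappa B, by 0.58 ± 0.11 and Cebpd by 0.41 ± 0.11. The gene of the receptor itself, Nr3c1, differed by -0.04 ± 0.08. Tat, Tsc22d3 and Sgk1, widely used as targets, had differences of -0.02, -0.15 and -0.10 that were not called.

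The other 6 that fell also stand in other lists. They were Lpin1, Per1, Mt1, Mt2, Pck1 and Got1. The metallothionein genes Mt1 and Mt2, whose products bind zinc, had differences of -0.91 ± 0.22 and -1.63 ± 0.41, and replicate 3 of ZT12 was the highest sample of both, at 9.45 for Mt1 and 10.56 for Mt2. Without that array neither was called (adjusted p = 0.121 and 0.157), and Mt1 also lost its call without replicate 2 and Mt2 without replicate 3 of ZT16. Mt1 and Mt2 have similar sequences, and cross-hybridisation was not measured. Without replicate 3 of ZT16, 6 genes of the list were called lower.

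Lpin1, a phosphatidate phosphatase of triglyceride synthesis that also acts as a nuclear coactivator in fasting liver, fell. It stood at 11.62, 12.31 and 11.33 at ZT12 and at 10.04, 9.85 and 9.44 at ZT16, a difference of -1.98 ± 0.24 (limma adjusted p = 3.3e-06). Lpin2, of the same family, fell by 0.58 ± 0.12, and was not called without replicate 3 of ZT16 (adjusted p = 0.0813). The list of lipid synthesis genes that holds both had 2 of 27 genes lower and 2 higher, with a median of 0.18. Of all tested genes 1.61% fell and 2.08% rose.

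Those that rose were Insig2, which retains SREBP precursors in the ER (0.72 ± 0.14, limma adjusted p = 0.00167), and the acyltransferase gene Agpat2 (0.41 ± 0.11), whose call was lost without any of 4 of the 6 arrays. Fasn, fatty acid synthase, read 11.55, 11.17 and 11.16 and then 12.03, 12.08 and 11.95. Its groups did not overlap, but the difference of 0.73 ± 0.24 missed the threshold (adjusted p = 0.087). Srebf1 (0.20), Acaca (0.20), Acly (0.35) and Scd1 (0.02) were not called. Of 21 cholesterol synthesis and uptake genes 1 was called, Mvd, mevalonate diphosphate decarboxylase (0.82 ± 0.23, adjusted p = 0.0344), which lost its call without any of 4 of the 6 arrays. The list's median was 0.02, and 3.69% of all tested genes were called.

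Genes that insulin represses through FOXO had a mixed pattern, with 5 of 20 lower, 2 higher and a median of -0.13. Over all tested genes 1.61% fell and 2.08% rose. Pck1, the enzyme that commits carbon to gluconeogenesis, fell from 12.84, 12.88 and 12.72 to 12.14, 12.36 and 11.57 (-0.79 ± 0.18, limma adjusted p = 0.00703). Foxo1 fell by 0.54 ± 0.12, Foxo3 by 0.40 ± 0.09 and Klf15, a factor for amino acid use in fasting, by 0.51 ± 0.13. Igfbp1, a binding protein of insulin-like growth factors, fell by 1.26 ± 0.35 (adjusted p = 0.0352), with levels of 7.99, 8.28 and 9.14 before and 7.33, 7.92 and 6.39 after. Its samples were the most scattered of the list, and the call was lost without any of 4 of the 6 arrays.

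Irs1, an adaptor of the insulin receptor, rose by 0.55 ± 0.11 (limma adjusted p = 0.00176), although its second probe set, which lay under the low intensity limit, gave 0.07. Pdk4, the kinase that shuts pyruvate dehydrogenase, rose from 6.90, 6.44 and 7.64 to 8.40, 7.83 and 8.92 (1.39 ± 0.37, adjusted p = 0.025), and lost its call without any of 4 of the 6 arrays. G6pc (-0.38), Ppargc1a (-0.36) and Irs2 (-0.20) were not called. Without replicate 3 of ZT16, 1 gene of the list was called lower and 1 higher, without replicate 2 of ZT12 3 and 1, and Pck1 had an adjusted p of 0.117.

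Of 16 gluconeogenesis genes 3 fell, Pck1, Foxo1 and the aspartate aminotransferase gene Got1 (-0.70 ± 0.12, limma adjusted p = 0.00057), and 1 rose, Creb1 (0.30 ± 0.08), a call lost without any of 4 of the 6 arrays. Without replicate 3 of ZT16 the count of 3 became 1, as Pck1 and Foxo1 lost their calls. The median was -0.19, and 2 of the 16 had a positive difference, against 6473 of all 13956 tested genes. Pfkfb3, which makes the activator of phosphofructokinase, was the only called gene among 20 of glycolysis and fructose use. It went from 8.77, 9.57 and 8.75 to 7.30, 7.43 and 6.78 (-1.86 ± 0.23, adjusted p = 5.13e-06). In glycogen metabolism 1 of 17 genes was called, Ppp1r3b, which targets a phosphatase to glycogen (0.55 ± 0.16), a call lost without any of 5 of the 6 arrays. Over all tested genes 3.69% were called.

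Among 37 PPARA targets and fat oxidation genes 3 fell and 1 rose, with a median of 0.01, where 1.61% of all tested genes fell and 2.08% rose. Angptl4, an inhibitor of lipoprotein lipase, went from 10.25, 10.16 and 10.32 to 9.21, 9.28 and 9.10 (-1.05 ± 0.23, limma adjusted p = 0.00663), with tight and separate groups. Cpt1a, which admits fatty acids to mitochondria, fell by 0.45 ± 0.08 and the ketone body enzyme gene Bdh1 by 0.34 ± 0.09, a call lost without any of 4 of the 6 arrays, and Pdk4 was the member that rose. Ppara (-0.39, adjusted p = 0.0662), Fgf21 (0.05), Acadm (0.07) and Hadha (-0.06) were not called.

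Of 24 genes of bile acid synthesis and transport 4 fell and 0 rose, with a median of -0.07. Over all tested genes 1.61% fell and 2.08% rose. Abcg5 and Abcg8, the subunits of the pump that exports cholesterol into bile, fell together. Abcg5 went from 10.75, 10.62 and 10.66 to 10.08, 9.85 and 9.70 (-0.80 ± 0.12, limma adjusted p = 5.42e-05). Abcg8 went from 10.70, 10.65 and 10.60 to 10.10, 9.65 and 9.44 (-0.92 ± 0.13, adjusted p = 6.08e-05). Neither pair of groups overlapped. The other members called were Nr0b2, the corepressor SHP (-0.83 ± 0.21), and Abcc2, a canalicular exporter (-0.29 ± 0.08). The count was 2 without replicate 1 or 2 of ZT12 or replicate 3 of ZT16. Cyp7a1, whose enzyme limits the rate of bile acid production, differed by 0.10 ± 0.16.

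Further large changes lay outside these pathways. Cldn1, a tight junction protein, rose from 9.37, 8.88 and 9.76 to 11.13, 10.80 and 10.83 (1.59 ± 0.14, limma adjusted p = 2.33e-08), and Tjp3, a scaffold of the same junctions, from 7.45, 7.28 and 7.44 to 8.54, 8.68 and 8.72 (1.26 ± 0.10). Tjp3 had the smallest adjusted p of all tested genes, 2.73e-09. Celsr1, a cadherin of planar cell polarity, rose by 1.28 ± 0.18 and the beta tubulin gene Tubb2a by 1.68 ± 0.28. Chka, the first kinase of phosphatidylcholine synthesis from choline, rose by 1.36 ± 0.17, while Gpcpd1, which splits glycerophosphocholine, fell by 1.95 ± 0.22, from 11.55, 11.70 and 11.46 to 9.82, 9.40 and 9.64.

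Elovl3, an elongase of very long chain fatty acids, rose by 1.33 ± 0.15, Slc30a10, a manganese exporter, by 1.20 ± 0.17 and Leap2, a liver peptide that blocks the ghrelin receptor, by 1.23 ± 0.18. Lgalsl rose by 1.46 ± 0.15. Pnkd rose by 1.21 ± 0.13 on its brighter probe set, but its other probe set gave 0.10. The receptor tyrosine kinase gene Erbb4 fell by 1.36 ± 0.15, Cabyr by 1.86 ± 0.35, Syt1 by 1.20 ± 0.15 and the potassium channel gene Kcnk5 by 1.08 ± 0.21. Each of these 9 genes had groups that did not overlap, as had nearly all called genes.

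Genes that crossed the low intensity limit of 6.11, with all 3 samples below it at one time and above it at the other, were few. Dhrs9, a short chain dehydrogenase, went from 5.53, 5.54 and 5.75 to 7.11, 7.31 and 7.16 (1.58 ± 0.21, limma adjusted p = 1.65e-05). The other 3 that crossed upward were 4931414P19Rik, 4933431E20Rik and Mbd4, a DNA glycosylase, with differences of 0.46, 0.36 and 0.36. Lrrc63 crossed downward with -0.45. Each of these 4 lost its call without any of at least 3 of the 6 arrays. Apart from Dhrs9 these changes were small and near the limit, where the offset compresses differences.

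Several lists held a few called genes each. Over all tested genes 3.69% were called, 2.08% higher and 1.61% lower, and no list was tested against these shares. The ribosome biogenesis list had 4 of 43 lower and 0 higher, with a median of -0.11: Rrn3, the initiation factor of RNA polymerase I (-0.54 ± 0.12), the nucleolar GTPase gene Gnl3 (-0.48), Polr1a (-0.35) and Rrp9 (-0.30), and 0 genes of the list were called without replicate 2 of ZT12 and 2 without replicate 2 of ZT16. Timm17a (-0.37) and Tomm40 (-0.31), subunits of the mitochondrial import channels, were the 2 of 35 called in their list, and Tomm40 lost its call without replicate 1 or 2 of ZT12 or replicate 3 of ZT16. Ulk1, the kinase that starts autophagy (-0.58 ± 0.11), and Atg2a (-0.39) were the 2 of 36 called among autophagy and lysosome genes, and Atg2a lost its call without any of 4 of the 6 arrays. Slc25a51, the mitochondrial NAD carrier, fell by 0.76 ± 0.12 as the 1 of 23 called in the NAD list, where 2 were called without replicate 3 of ZT12 or replicate 1 of ZT16.

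Amino acid catabolism had 2 of 32 genes higher, where 2.08% of all tested genes rose. They were Gldc of the glycine cleavage system (0.42 ± 0.08) and Ddc (0.59 ± 0.17), whose groups overlapped and whose call was lost without any of 4 of the 6 arrays. Iron, heme and metallothionein genes had 2 of 25 higher, Slc30a10 and Hjv, the hepcidin regulator hemojuvelin (0.50 ± 0.11, not called without replicate 2 of ZT12 or replicate 3 of ZT16), and 3 lower, Mt1, Mt2 and the metal importer gene Slc39a14 (-0.44 ± 0.08). Cebpb, a factor of the acute phase, fell by 0.78 ± 0.16 (limma adjusted p = 0.00263). No gene was called among 30 ribosomal protein genes, 34 proteasome genes, 43 oxidative phosphorylation genes, 17 lipoprotein genes, 25 xenobiotic metabolism genes or 29 immediate early genes.

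**Figure D4:**
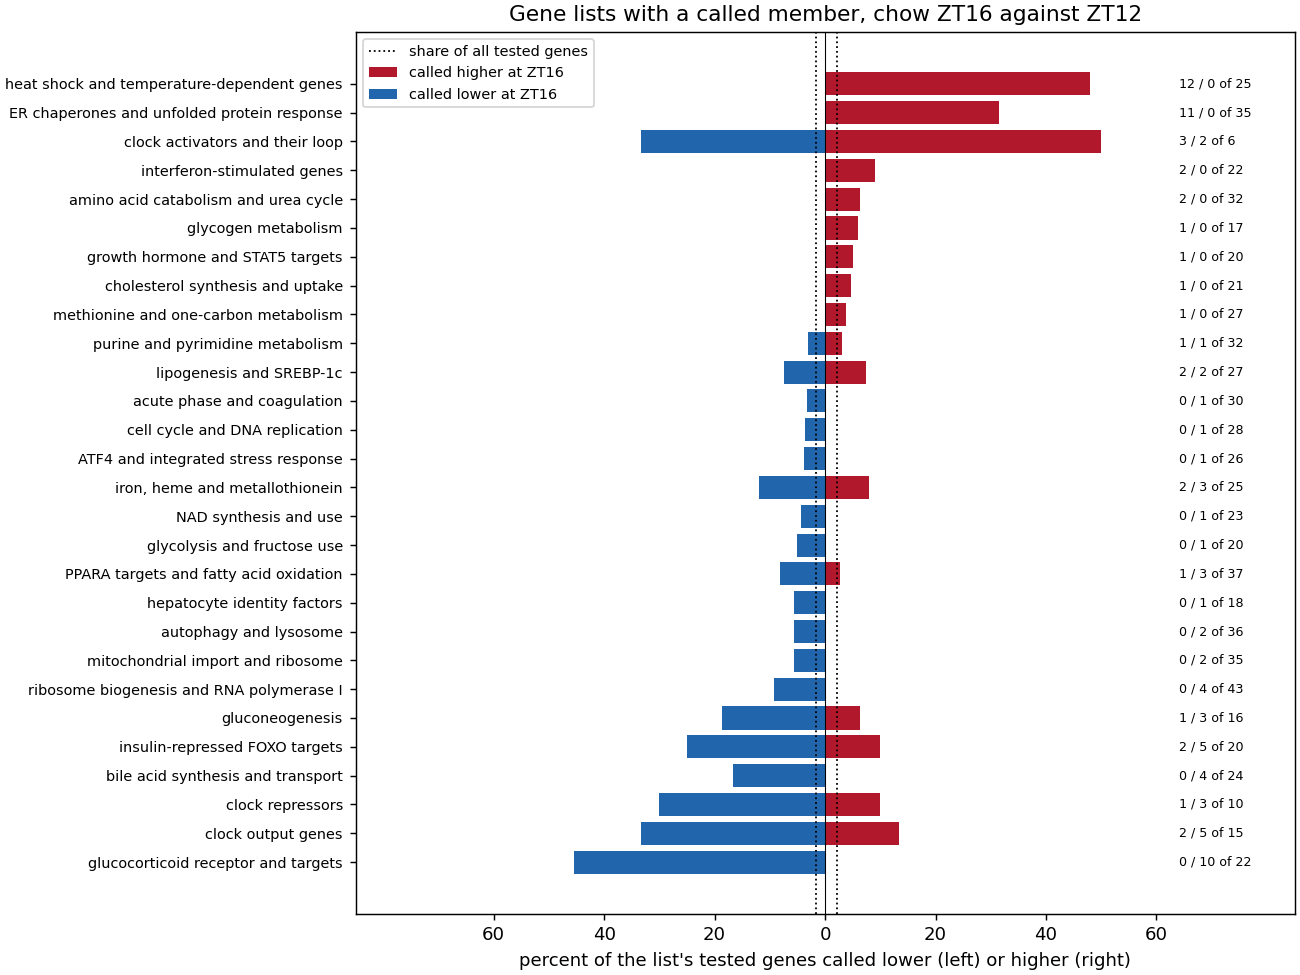
Bars give the percent of each list's tested genes called lower (blue, left) and higher (red, right) at ZT16 against ZT12 on chow, for lists with a called member, ordered by the percent called higher minus the percent called lower; counts at the right are higher / lower of tested. Dotted lines mark the shares over all tested genes, 1.61% lower and 2.08% higher; heat shock, ER chaperone and clock activator lists reach farthest to the right and the glucocorticoid list, with 10 of 22, farthest to the left.

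Markers of other liver cells were checked because bulk tissue mixes cell types. A change in the number of cells of a type and a change in RNA per cell cannot be told apart here. The markers cannot separate them either. Over all 13956 tested genes 6473 had a positive difference. Of 14 markers of Kupffer cells, the resident macrophages, 13 had a positive difference, with a median of 0.41 and 0 called. Markers of 1 cell type can move together across samples, so they are not separate observations. All 14 were above the low intensity limit, and their summed intensity was 5254, 4044 and 2963 in replicates 1 to 3 at ZT12 and 6019, 5007 and 5471 at ZT16. The ZT12 samples thus differed among themselves, and the ranges overlapped. Of 11 markers of sinusoidal endothelium all 11 had a positive difference (median 0.21, 0 called), with sums of 4696 to 6023 at ZT12 and 5581 to 7222 at ZT16.

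Among interferon-stimulated genes 2 of 22 rose, Oasl1 (0.57 ± 0.14) and Stat2 (0.36 ± 0.09), where 2.08% of all tested genes rose. The list had a median of 0.16. Of its genes 0 were called without replicate 3 of ZT16 or replicate 2 of ZT12 and 1 without replicate 3 of ZT12. Macrophages also express such genes, and the part of the higher Kupffer cell sums in this count was not tested. Markers of stellate cells (8 of 12 positive, median 0.13), bile duct (2 of 3, 0.08), lymphocytes (4 of 6, 0.18), neutrophils (2 of 3, 0.02), red blood cells (1 of 2, -0.05), adipose tissue (4 of 4, 0.06), muscle (2 of 4, 0.02) and pancreas and gut (1 of 5, -0.14) had 0 called genes. A positive difference was found for 6473 of all 13956 tested genes. Of the 10 lymphocyte markers on the array 6 lay above the low intensity limit, and Cd3g, Cd79a, Ms4a1 and Klrb1c lay below it. The summed intensity of all 10 was 657 to 741 at ZT12 and 775 to 1058 at ZT16, ranges that did not overlap. The part of these markers in the interferon count was not tested either. By their mean over the 6 samples, the neutrophil markers S100a8, Ly6g, Mpo, Csf3r and Retnlg lay below the low intensity limit. Of 7 neutrophil markers 2 lay above it. The adipose markers Adipoq and Lep and the muscle markers Myh4, Mylpf and Myh1 also lay below it. So did the bile duct markers Epcam and Cftr and the gut markers Vil1 and Sis.

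The same 4 h step was measured in other animals, those on high fat diet, where limma called 102 genes higher (0.731%) and 43 lower (0.308%). Of the 290 genes that rose on chow, 281 (96.9%) had a positive difference on high fat diet, against 53.0% of all tested genes. Of the 225 that fell, 192 (85.3%) had a negative one, against 47.0%. The 67 genes called higher on both diets were 23.1% of the chow list and 65.7% of the high fat diet list, and the 25 called lower on both were 11.1% and 58.1%. Among genes chosen for their change on chow, the median was 0.49 on chow and 0.32 on high fat diet for those that rose, and -0.45 and -0.17 for those that fell.

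On high fat diet the clock genes differed by 1.56 for Arntl, 0.56 for Clock, 0.73 for Cry1, -2.21 for Ciart, -1.41 for Nr1d1 and -1.70 for Dbp. For the chaperones the values on high fat diet were 0.65 ± 0.15 for Hsp90aa1, 0.72 ± 0.20 for Hspb1 and 0.36 ± 0.09 for Stip1, and the list medians were 0.13 for heat shock and 0.18 for ER genes. The glucocorticoid list had a median of -0.16 on high fat diet against -0.56 on chow. In the test of the difference itself, however, none of these genes passed, with limma adjusted p-values of 0.577 for Hsp90aa1, 0.739 for Hspb1 and 0.46 for Stip1. A p that misses the threshold does not show that the diets act alike.

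That test called 1 gene out of 13956 (0.00717%), with 721 at an unadjusted p under 0.05. It was Fgfr2, a fibroblast growth factor receptor. On chow its level was 8.92, 9.09 and 8.84 at ZT12 and 8.62, 8.76 and 8.64 at ZT16, a difference of -0.27 ± 0.08 that was not called (limma adjusted p = 0.0535), while on high fat diet it rose from 8.28 ± 0.04 to 8.67 ± 0.08 (SD, n = 3 each). The steps differed by -0.67 ± 0.11 (adjusted p = 0.0332), and this call was lost with the replicate number as a block (adjusted p = 0.0505) and in several other fits given at the end. Next came Tjp3, with 1.26 on chow and 0.52 on high fat diet (adjusted p = 0.0921), Lgalsl (1.46 and 0.48) and Alpl, alkaline phosphatase (0.64 and -0.28), both with an adjusted p of 0.202.

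**Figure D5:**
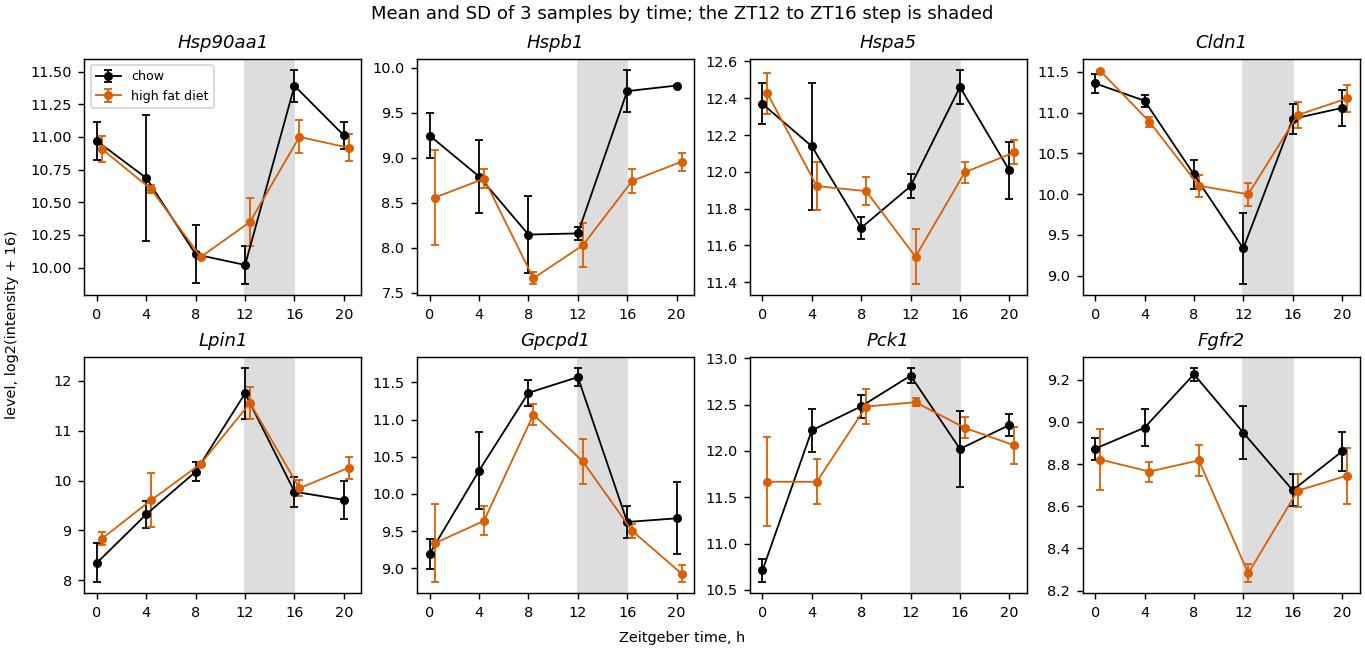
Mean and SD of 3 samples in log2(intensity + 16) by Zeitgeber time in hours for 8 genes, chow in black and high fat diet in orange, each panel with its own axis and the ZT12 to ZT16 step shaded. On chow Hsp90aa1 rises in the step from 10.02 to 11.39, its highest time, and Lpin1 falls from its highest time, 11.75, to 9.78; Fgfr2 on high fat diet dips to 8.28 at ZT12.

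Over the whole day on chow, the step belonged to different phases for the genes that rose and fell. Of the 290 that rose, 197 had their lowest mean at ZT12 and 72 at ZT8, and 169 had their highest mean at ZT0, 91 at ZT16 and 19 at ZT20. A gene called higher at ZT16 cannot be highest at ZT12, so part of this is set by the choice of genes. Of all 13956 tested genes, 2108 had their lowest mean at ZT12 and 1936 at ZT8, and 2502 had their highest at ZT0, 1554 at ZT16 and 3153 at ZT20. Arntl, Clock and Cldn1 had their lowest mean at ZT12 and their highest at ZT0, whereas Hsp90aa1, Stip1, Fkbp4, Hspa5, Manf and Creld2 were highest at ZT16 itself. Of the 225 that fell, 118 were highest at ZT12 and 90 at ZT8, and 93 were lowest at ZT0, 60 at ZT20 and 57 at ZT16, where over all tested genes 1878 were highest at ZT12 and 2764 at ZT8, and 2228 were lowest at ZT0, 3449 at ZT20 and 2014 at ZT16. Lpin1, Gpcpd1, Pck1, Angptl4 and Per1 were highest at ZT12, and Dbp, Nr1d2, Abcg5 and Abcg8 at ZT8.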

How the data were processed

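Liver RNA was hybridised to Affymetrix whole-transcript arrays, 1 for each of 36 samples, which fall into 12 groups of 3. The authors deposited a linear intensity for each of 35556 probe sets, made with Affymetrix Expression Console 1.1.1 and PLIER 2.0, per the submitters' processing notes; how background and array differences were handled is not given in the sources used here. Array medians of the 6 chow samples at ZT12 and ZT16 lay between 78.3 and 85.5, and no pair of arrays held identical values. The number of arrays limits the precision.

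Values were used as deposited, as log2(intensity + 16). The platform annotation gave 1 gene for 21789 probe sets and several for 1621, and 12146 were unlisted and are unnamed here; 99.6% of the symbols were updated through RefSeq. For 999 genes with several probe sets the brightest was used. Genes above the 30th percentile of mean level were tested. A fit with limma 3.58.1 in R 4.3.3 held 1 mean per diet and time, which left 24 residual degrees of freedom, and gave the step on each diet and their difference. The fit was tested on simulated data with known changes. The simulated noise was independent between arrays, so that test did not cover correlation between samples or effects of single arrays. Replicate numbers are shared by the groups. The deviations of samples with the same number from their group means correlated at 0.32, 0.38 and 0.20 across genes. The numbers were therefore taken to pair the samples, from the data and not from the labels. Samples with different numbers were not correlated for comparison. The main fit left this pairing out, so its SE and p-values do not take the pairing into account. The pairing entered only as the replicate block among the alternatives.

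The 48 gene lists held 1114 symbols, of which 975 were tested; members and lists were chosen with earlier results of these data known. The rule for named genes took the 15 highest and 15 lowest called differences, called genes that crossed the low intensity limit, up to 3 called members per list and direction (or the member with the smallest p), all tested clock genes, and the 5 smallest p-values each way for the difference between diets. Other genes were named as list members after their values were seen. Alternatives covered normalization, offset, filter, probe sets, samples in the fit, replicate block, variance model, array weights, threshold and leaving out each array.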

Additional observations from a re-analysis of the deposited data

Results flagged for a closer look

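The step from ZT12 to ZT16 differed between the diets for Fgfr2, a receptor of fibroblast growth factors, by the test of the difference in limma. Its chow step minus its high fat diet step was -0.67 ± 0.11 on the log2 scale (adjusted p = 0.0332), with all 3 ZT16 samples below all 3 ZT12 samples on chow. The high fat diet mean at ZT12, 8.28, was the lowest of the 12 group means of this gene. The call was kept in 11 of 25 alternatives, and the adjusted p ran from 0.0155 to 0.322 over them.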

How the results depend on the processing

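The direction of all 87 called genes named by the rule held in every alternative tried; 42 also kept their call in each, and 45 lost it in at least 1. Against 515 called on chow (290 higher, 225 lower), median centring gave 315 (193 and 122), only the groups of the contrast 262 (177 and 85, 232 genes shared), array weights 976 (468 and 508), an adjusted p under 0.01 257 (155 and 102) and a further 1.5-fold minimum 164 (102 and 62). Leaving out 1 array gave 254 to 451 called, 145 to 274 higher and 85 to 227 lower. Quantile normalization, other offsets, other filters, the mean of probe sets and the variance model kept the count within 1.5 times. The share called higher was 56.3%, 52.0% after quantile normalization and 61.3% after median centring. With the replicate number as a block 516 genes were called, 498 of them shared. None of the 87 called named genes lost its call on chow with the block, while Fgfr2 lost its call in the difference between diets. Calls that the block may have added among the other named genes were not counted.

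On high fat diet the 145 called became 84 with median centring, 488 with array weights, 56 at an adjusted p under 0.01, 48 with a 1.5-fold minimum and 46 to 133 without 1 array. For the difference between diets, 1 called gene became 0 with quantile normalization, median centring, no filter, the replicate block or an adjusted p under 0.01, 8 with array weights and 0 to 3 without 1 array. The number of chow steps with more called genes, 1, became 0 with only the groups of the contrast, at an adjusted p under 0.01 or with a 1.5-fold minimum, and 1 to 3 without 1 array. The causes were not tested, except that fewer samples or a stricter threshold were part of several of these settings.

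Signs turned for 5 genes that were not called. Without 1 array the difference ran from -0.22 to 0.0062 for Bhlhe40, from -0.066 to 0.0014 for Csnk1d, from -0.051 to 0.15 for Csnk1e, from -0.073 to 0.12 for Psd4 and from -0.069 to 0.073 for Rora. Psd4 was -0.014 with array weights and Rora -0.011 after quantile normalization. Genes near the low intensity limit have compressed differences, and 3 samples per time limit what can be called.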
